A study of Mus musculus with 16 samples.

Results

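The 29 genes of cholesterol and fatty acid synthesis described here were chosen by name and by role: 7 enzymes of the mevalonate pathway, 10 enzymes that turn its product into cholesterol, 5 regulators of the pathway, 6 enzymes of fatty acid synthesis and the sterol carrier Stard4. All 29 were present among the 45513 genes counted in mouse colon epithelium, and all were among the 15841 genes that passed a filter on low counts. The 16 RNA-sequencing libraries came from the colons of 8 mice, each of which gave a tdTom+ and a tdTom- library of live EpCAM+ epithelial cells sorted after enrichment for crypts. Both populations carried the same alleles, homozygous Atoh1(WT)CreERT2 with Rosa26tdTom/+ on a C57BL/6 background. The mice were 8 to 16 weeks old, and the study as a whole used males and females. Both populations had also seen the same treatment, which the labels give as 1 mg of tamoxifen daily on 3 days. CreERT2 sits downstream of the coding sequence of Atoh1, the transcription factor of secretory lineages, so tdTom marks cells in which that locus was active under tamoxifen together with their descendants. The tdTom- population is every other EpCAM+ cell and includes any secretory cell that escaped labelling.

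Cholesterol is built from acetyl-CoA through mevalonate, isopentenyl and farnesyl diphosphate, squalene and lanosterol, and long-chain fatty acids are built from the same acetyl-CoA through malonyl-CoA. Both routes are controlled by the SREBP transcription factors, which are held in the endoplasmic reticulum with Scap and the Insig proteins while sterols are plentiful and travel to the Golgi to be cleaved when sterols run low. The epithelium of the colon renews itself continuously, and its goblet cells, the main secretory type, fill with membrane-bound mucin granules.

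The tdTom+ cells had higher counts than the tdTom- cells for most of the genes that make cholesterol. Among the 6 enzymes of fatty acid synthesis, 1 was higher, 1 was lower and 4 did not pass the test that follows. Of the 29 genes, 17 were higher in tdTom+ cells and 2 were lower, with edgeR's quasi-likelihood test and a Benjamini-Hochberg adjusted p under 0.01 over all genes tested. The other 10 did not pass. Across all 15841 genes tested, 25.5% were higher and 25.5% were lower by the same rule. The median log2 fold change of the 29 genes was 0.45, against 0.0039 over all genes tested. With the mouse as a replicate block, which is possible because each mouse gave both libraries, 19 of the 29 were higher and 4 lower, against 28.4% and 28.9% of all genes. In 14 of the 29 genes every tdTom+ library lay above every tdTom- library, and in 2 every tdTom+ library lay below. The shares of all genes tested were 15.2% above and 15.3% below.

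**Figure D1:**
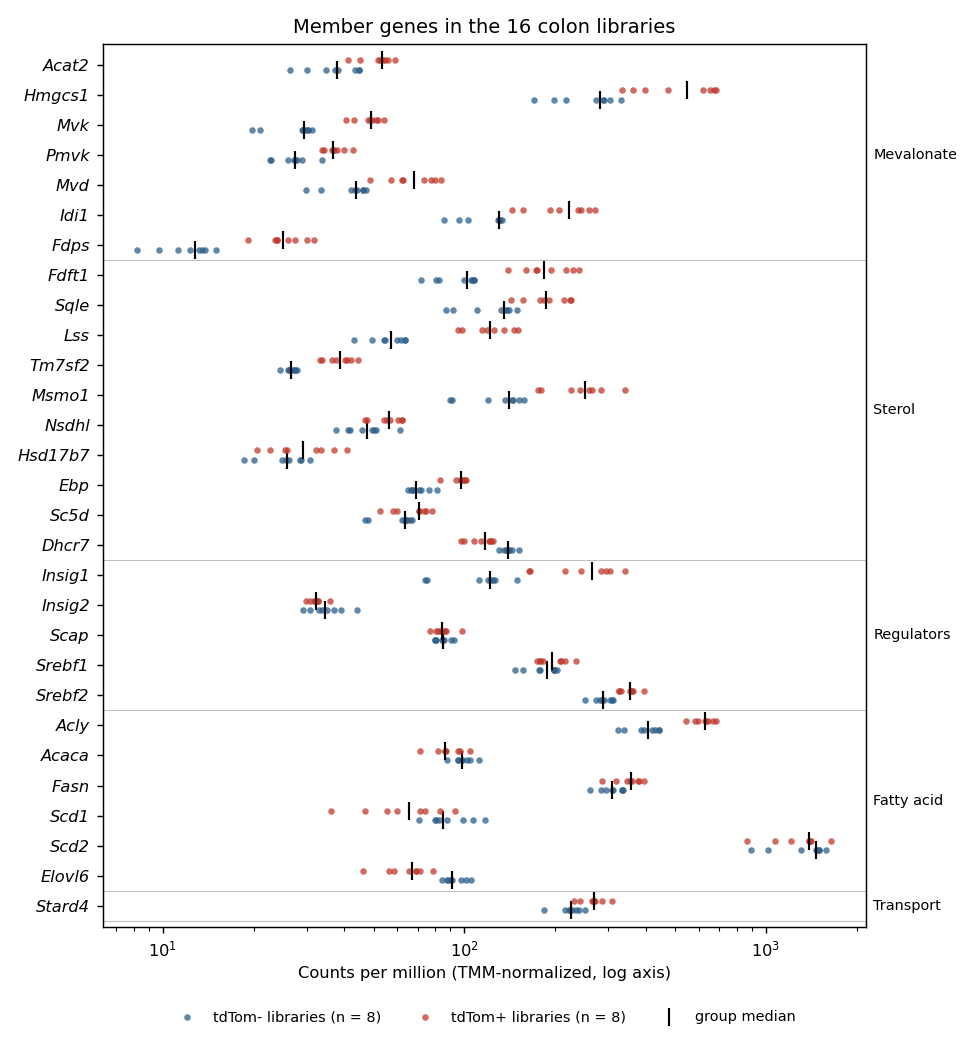
Level of each of the 29 genes in CPM (counts scaled to a common library total, log axis) in the 8 tdTom+ (red) and 8 tdTom- (blue) libraries, ordered by role, with black ticks at the group medians. The 2 colours separate fully for Hmgcs1, Lss and Insig1, and they overlap for Scap, with medians of 84.1 CPM in tdTom+ and 84.7 CPM in tdTom- libraries, and for Scd2, with 1390 and 1473 CPM.

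Levels are given as CPM, the counts scaled to a common library total with TMM normalization, and every fold change is tdTom+ over tdTom- on the log2 scale with its standard error (SE). In sorted bulk cells, a difference in the share of cells that use a gene cannot be told apart from a difference in RNA per cell.

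The promoter sequences of the genes at the extremes are shown here because many, though not all, of the 29 genes are known targets of SREBPs. These factors bind sterol regulatory elements beside CCAAT and GC boxes. RefSeq promoter windows (GRCm38.p6, 250 bases before to 50 bases after a transcription start) were found for 23 of the 29 genes, in 31 windows. No window was used for Fdps, Fdft1, Sqle, Scd1, Scd2 and Stard4. The 4 windows that follow belong to Insig1 (chr5:28071162-28071461, plus strand) and Lss (chr10:76531355-76531654, plus strand), which had the largest fold changes among the 23, and to Elovl6 (chr3:129532136-129532435, plus strand) and Dhcr7 (chr7:143829964-143830263, plus strand), the 2 genes that were lower. Dhcr7 has 3 windows, and the 1 shown is the 1 that holds CCAAT. The window of Hmgcs1 (chr13:119690101-119690400, plus strand) was added after its sequence was seen, as the only window of the 31 with the sterol regulatory element searched for. Capitals mark CCAAT or its complement ATTGG, and in Hmgcs1 also the match to TCACNCCAC that starts at position 114 of 300.
Insig1: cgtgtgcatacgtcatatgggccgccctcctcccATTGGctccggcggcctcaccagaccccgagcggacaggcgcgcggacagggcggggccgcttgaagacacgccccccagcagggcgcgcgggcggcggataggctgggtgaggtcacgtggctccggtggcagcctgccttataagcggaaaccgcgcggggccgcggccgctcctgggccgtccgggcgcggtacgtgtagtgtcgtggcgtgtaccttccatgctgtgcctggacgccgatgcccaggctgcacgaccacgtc
Lss: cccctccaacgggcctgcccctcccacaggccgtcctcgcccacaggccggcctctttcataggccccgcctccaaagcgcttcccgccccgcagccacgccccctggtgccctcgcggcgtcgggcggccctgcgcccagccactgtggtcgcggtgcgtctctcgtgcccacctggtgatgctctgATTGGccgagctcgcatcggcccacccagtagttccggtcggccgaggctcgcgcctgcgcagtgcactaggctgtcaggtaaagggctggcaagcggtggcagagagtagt
Hmgcs1: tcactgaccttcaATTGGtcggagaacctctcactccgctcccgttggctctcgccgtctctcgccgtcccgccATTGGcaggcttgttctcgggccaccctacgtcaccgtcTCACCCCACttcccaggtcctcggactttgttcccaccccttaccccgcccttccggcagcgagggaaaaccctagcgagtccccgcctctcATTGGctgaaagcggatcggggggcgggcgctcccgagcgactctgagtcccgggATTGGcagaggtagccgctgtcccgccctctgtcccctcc
Dhcr7: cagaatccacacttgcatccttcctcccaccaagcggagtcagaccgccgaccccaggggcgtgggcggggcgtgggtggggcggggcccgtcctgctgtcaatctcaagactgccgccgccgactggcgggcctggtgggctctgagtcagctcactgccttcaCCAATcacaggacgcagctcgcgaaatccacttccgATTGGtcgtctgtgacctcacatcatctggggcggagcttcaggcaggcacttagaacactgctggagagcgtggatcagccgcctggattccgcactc
Elovl6: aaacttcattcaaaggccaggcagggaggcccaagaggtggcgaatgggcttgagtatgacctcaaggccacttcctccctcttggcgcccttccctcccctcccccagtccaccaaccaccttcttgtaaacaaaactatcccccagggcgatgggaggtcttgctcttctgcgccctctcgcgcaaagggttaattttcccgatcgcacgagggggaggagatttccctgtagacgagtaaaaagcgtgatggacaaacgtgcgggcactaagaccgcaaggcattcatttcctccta

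Searched on both strands, CCAAT occurred in the windows of 19 of the 23 genes (82.6%). The same letters occurred in 43.2% of the 10438 tested genes that have a window in the table, and in 41.1% of all 27025 genes there. Counted by window, the shares were 64.5% of the 31 windows and 38% of the windows of tested genes. The 4 genes without CCAAT were Acat2, Scap, Acaca and Elovl6. GGGCGG, the letters of a GC box, also occurred in 19 of the 23 genes (82.6%), against 67% of the tested genes, and the 4 without it were Pmvk, Acaca, Fasn and Elovl6. Elovl6 and Acaca therefore had neither word in the window used, while Dhcr7 had 2 CCAAT and 3 GGGCGG matches in the window shown. TCACNCCAC occurred in Hmgcs1 alone of the 23 genes (4.35%) and in 1.36% of the tested genes. Such matches are descriptions of letters in 300 bases and not of binding.

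All 7 enzymes of the mevalonate pathway were higher in tdTom+ cells, with log2 fold changes from 0.46 to 1.09 and a median of 0.81. Acat2, the cytosolic thiolase that joins acetyl-CoA units, ran from 41.2 to 59.1 CPM in tdTom+ cells (median 53.2) and from 26.3 to 44.7 CPM in tdTom- cells (median 37.7). Only the lowest tdTom+ library, that of mouse 1, fell within the tdTom- range. The log2 fold change was 0.46 (SE 0.10, adjusted p = 5.35e-04). Hmgcs1, which makes HMG-CoA from that product, had 333 to 683 CPM in tdTom+ cells (median 547), against 170 to 332 CPM in tdTom- cells (median 281). Every tdTom+ library lay above every tdTom- library, although the nearest of them almost touched. The log2 fold change was 1.02 (SE 0.17, adjusted p = 2.29e-05).

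The kinases and the decarboxylase that carry mevalonate to isopentenyl diphosphate were also higher without overlap between the populations. Mvk, mevalonate kinase, had 40.5 to 54 CPM in tdTom+ cells (median 49.2) and 19.7 to 31.2 CPM in tdTom- cells (median 29.4). Its log2 fold change was 0.81 (SE 0.09, adjusted p = 1.66e-07). The difference for Pmvk, phosphomevalonate kinase, was smaller: 33.8 to 42.7 CPM with a median of 36.7 in tdTom+ cells stood just above 22.7 to 33.7 CPM with a median of 27.4. That is a log2 fold change of 0.46 (SE 0.07, adjusted p = 2.06e-05). Mvd, which decarboxylates mevalonate diphosphate, reached 48.7 to 83.9 CPM (median 68) in tdTom+ cells and 30 to 47.1 CPM (median 43.7) in tdTom- cells. The highest tdTom- library stayed just below the lowest tdTom+ library, and the log2 fold change was 0.71 (SE 0.11, adjusted p = 1.25e-05).

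Idi1, the isomerase that makes dimethylallyl diphosphate, had 144 to 272 CPM in tdTom+ cells (median 222) and 85.7 to 133 CPM in tdTom- cells (median 130). The populations did not overlap, and the tdTom+ libraries were spread more widely than the tdTom- libraries. The log2 fold change was 0.87 (SE 0.13, adjusted p = 6.55e-06). Fdps, which joins these units into farnesyl diphosphate, had the largest fold change of the mevalonate enzymes at the lowest level in CPM. Its range was 19.2 to 31.8 CPM (median 25) in tdTom+ cells and 8.22 to 15.1 CPM (median 12.8) in tdTom- cells, with a log2 fold change of 1.09 (SE 0.12, adjusted p = 7.23e-08).

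Some of these genes share sequence with copies, so the reads of those genes could have been divided between loci. Of all windows of 50 bases, the read length, in Acat2 transcripts, 39.1% also occur in Acat3, whose counts over all libraries were 5514 against 15313 for Acat2. For Idi1 the share was 17.7%, all of it with Gm13502. Of the exon bases of Fdps, 26.7% are also annotated to Gm43738, which was listed with 0 counts in every library, so reads from those bases may have been assigned to neither gene. The levels and fold changes of these 3 genes are uncertain to that extent.

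Of the 10 enzymes from squalene to cholesterol, 6 were higher in tdTom+ cells, 1 was lower and 3 did not pass, with a median log2 fold change of 0.49. With the replicate block 7 were higher and 1 was lower. Fdft1, squalene synthase, had 139 to 240 CPM in tdTom+ cells (median 184) and 71.9 to 108 CPM in tdTom- cells (median 102). The populations were clearly apart, and the log2 fold change was 1.00 (SE 0.11, adjusted p = 1.30e-07). Sqle, squalene epoxidase, had 143 to 225 CPM in tdTom+ cells (median 187) and 86.7 to 149 CPM in tdTom- cells (median 135). Only the tdTom+ library of mouse 1 fell within the tdTom- range, and the log2 fold change was 0.62 (SE 0.12, adjusted p = 1.22e-04). Lss, which closes the sterol rings to give lanosterol, had the largest fold change of all 17 mevalonate and sterol enzymes. Its tdTom+ libraries ran from 95 to 151 CPM (median 122) and its tdTom- libraries from 43.1 to 63.4 CPM (median 57.3), far apart, with a log2 fold change of 1.13 (SE 0.10, adjusted p = 4.11e-09).

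Among the enzymes that work on lanosterol and its products, Tm7sf2, a sterol C14 reductase, had 33.1 to 44.4 CPM in tdTom+ cells (median 38.8) and 24.4 to 27.9 CPM in tdTom- cells (median 26.7). Its log2 fold change was 0.54 (SE 0.06, adjusted p = 2.11e-07). Msmo1, which starts the removal of the C4 methyl groups, had 176 to 341 CPM in tdTom+ cells (median 251) and 89.9 to 157 CPM in tdTom- cells (median 141). All its tdTom+ libraries were above all its tdTom- libraries, with a log2 fold change of 0.93 (SE 0.14, adjusted p = 7.64e-06). Ebp, the sterol isomerase, had 83.3 to 102 CPM in tdTom+ cells (median 97.7) and 64.9 to 81 CPM in tdTom- cells (median 69.2). It too was separated in every library, with a log2 fold change of 0.45 (SE 0.05, adjusted p = 4.96e-07).

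The partners of Msmo1 in C4 demethylation, and the desaturase Sc5d, differed less. Nsdhl, the C4 decarboxylase, had 47 to 62.4 CPM in tdTom+ cells (median 56.1) and 37.7 to 61.4 CPM in tdTom- cells (median 47.6), and 6 of the 8 tdTom+ libraries lay within the tdTom- range. Its log2 fold change of 0.24 (SE 0.09, adjusted p = 0.0263) did not pass. Within mice the tdTom+ library was the higher in 8 of 8, and with the replicate block the adjusted p was 3.13e-04, which passed. Hsd17b7, the 3-ketosteroid reductase, had 20.6 to 40.8 CPM (median 29.1) against 18.6 to 30.9 CPM (median 25.9), with a log2 fold change of 0.23 (95% interval -0.03 to 0.49, adjusted p = 0.142). Sc5d had 52.7 to 78.4 CPM (median 70.6) against 46.9 to 67 CPM (median 63.7), with a log2 fold change of 0.16 (95% interval -0.02 to 0.34, adjusted p = 0.14). Both overlapped, and neither passed with the replicate block (adjusted p = 0.0155 and 0.0254).

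Dhcr7, which reduces 7-dehydrocholesterol to cholesterol, was the exception among the sterol enzymes and was lower in tdTom+ cells. Its tdTom+ libraries ran from 97.9 to 124 CPM (median 117) and its tdTom- libraries from 131 to 152 CPM (median 140), so every tdTom+ library lay below every tdTom- library. The log2 fold change was -0.30 (SE 0.06, adjusted p = 1.22e-04), and the tdTom+ library was the lower in 8 of 8 mice. Of Tm7sf2 exon bases, 15.3% overlap Vps51, so reads from those bases may have been assigned to neither gene. Of Fdft1 windows 9.38% also occur in Gm6781, so a part of the Fdft1 reads could have gone to that locus. For the other sterol enzymes the shared windows came to at most 1.36%.

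**Figure D2:**
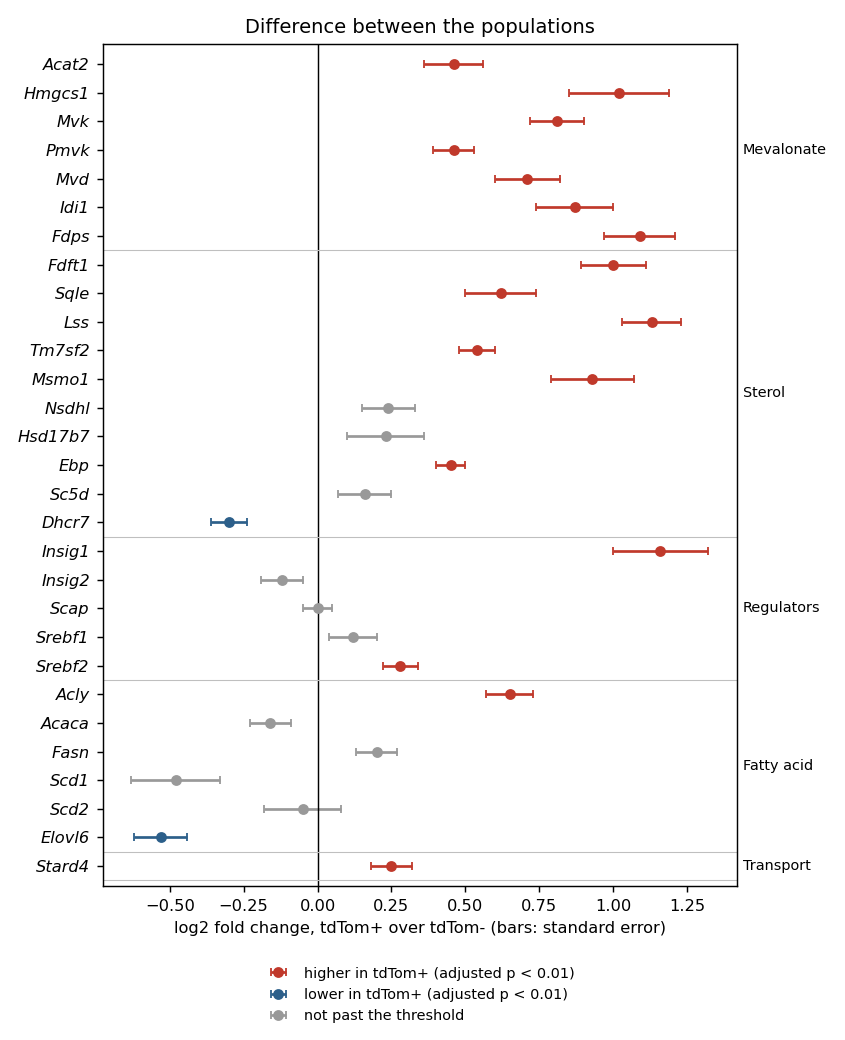
Log2 fold change of each gene, tdTom+ over tdTom-, with its standard error, coloured red where higher, blue where lower and grey where the adjusted p was not under 0.01. The 7 mevalonate enzymes all lie between 0.46 and 1.09, while the 6 fatty acid enzymes run from -0.53 to 0.65.

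Of the 5 regulators, the sterol sensor Insig1 and the transcription factor gene Srebf2 were higher and 3 did not pass. Insig1, which retains the SREBP and Scap complex in the endoplasmic reticulum and is itself an SREBP target, had the largest fold change of the 29 genes. It ran from 164 to 340 CPM in tdTom+ cells (median 265) and from 74.2 to 149 CPM in tdTom- cells (median 122). The lowest tdTom+ library was still above the highest tdTom- library, with a log2 fold change of 1.16 (SE 0.16, adjusted p = 3.32e-06). Insig2, its relative, had 29.8 to 35.9 CPM (median 32.2) against 29.2 to 44 CPM (median 34.4), all 8 tdTom+ libraries lay within the tdTom- range, and the log2 fold change was -0.12 (95% interval -0.27 to 0.02, adjusted p = 0.147).

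Srebf2, whose product SREBP2 mainly drives cholesterol genes, had 326 to 396 CPM in tdTom+ cells (median 355) and 252 to 312 CPM in tdTom- cells (median 289). The ranges did not overlap, but the difference was small, with a log2 fold change of 0.28 (SE 0.06, adjusted p = 3.10e-04). Scaled by library totals alone, it was 0.24 and did not pass (adjusted p = 0.0144), and in mice 1 to 3 alone it was 0.29 (adjusted p = 0.0531). Srebf1, whose products mainly drive fatty acid genes, had 175 to 234 CPM (median 196) against 148 to 203 CPM (median 188). Its log2 fold change was 0.12 (95% interval -0.04 to 0.27, adjusted p = 0.21). Scap, the SREBP escort, was at 77.1 to 97.9 CPM (median 84.1) and 79.8 to 92.6 CPM (median 84.7), with a log2 fold change of 0.00 (95% interval -0.10 to 0.10, adjusted p = 0.977).

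Of the 6 enzymes of fatty acid synthesis, 1 was higher, 1 was lower and 4 did not pass, with a median log2 fold change of -0.11. With the replicate block 2 were higher and 3 were lower. Over all genes tested, 25.5% were higher and 25.5% lower, or 28.4% and 28.9% with the block. Acly, ATP citrate lyase, makes the cytosolic acetyl-CoA that both routes use. It had 542 to 681 CPM in tdTom+ cells (median 630) and 323 to 443 CPM in tdTom- cells (median 407), with no overlap and a log2 fold change of 0.65 (SE 0.08, adjusted p = 2.31e-07). Elovl6, which elongates palmitate, went the other way, with 46.2 to 78.9 CPM in tdTom+ cells (median 67.2) and 84.1 to 105 CPM in tdTom- cells (median 90.7). Every tdTom+ library lay below every tdTom- library, with a log2 fold change of -0.53 (SE 0.09, adjusted p = 1.71e-05). Within mice the Elovl6 difference ran from -1.19 to -0.16 and was negative in 8 of 8.

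The enzymes of the malonyl-CoA route itself, Acaca and Fasn, differed by small amounts in opposite directions. Acaca, acetyl-CoA carboxylase, had 71.3 to 104 CPM in tdTom+ cells (median 86.5) and 87.3 to 112 CPM in tdTom- cells (median 98.4), a log2 fold change of -0.16 (SE 0.07, adjusted p = 0.0445). Fasn, fatty acid synthase, had 285 to 395 CPM (median 357) against 261 to 337 CPM (median 310), a log2 fold change of 0.20 (SE 0.07, adjusted p = 0.0243). The populations overlapped for both, and both passed with the replicate block, with adjusted p-values of 0.00784 and 0.00144. For Acaca, 30.4% of the 50-base windows also occur in other genes, nearly all in Gm5182, which was not among the genes counted.

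Scd1, a stearoyl-CoA desaturase, had 36 to 93.3 CPM in tdTom+ cells (median 65.5) and 70.9 to 117 CPM in tdTom- cells (median 85.2). The populations overlapped in 4 of the 8 tdTom+ libraries, and the log2 fold change of -0.48 (SE 0.15, adjusted p = 0.0105) just missed the threshold. Within mice Scd1 was lower in the tdTom+ library in 8 of 8, by -1.15 to -0.30 on the log2 scale, and with the replicate block the adjusted p was 1.82e-05. Scd2, its relative, was the most strongly counted of the 29 genes and differed little, with 866 to 1644 CPM (median 1390) against 891 to 1585 CPM (median 1473). The Scd2 log2 fold change was -0.05 (95% interval -0.31 to 0.21, adjusted p = 0.763). At most 4.56% of the windows of the Scd1 and Scd2 transcripts also occur in other genes of the family.

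Stard4, a soluble protein that carries sterols between membranes, had 232 to 308 CPM in tdTom+ cells (median 269) and 184 to 251 CPM in tdTom- cells (median 226). Only 2 tdTom+ libraries lay within the tdTom- range, and the log2 fold change was 0.25 (SE 0.07, adjusted p = 0.00332). The difference did not pass with library totals alone (adjusted p = 0.0331), without mouse 7 (adjusted p = 0.0148) or in mice 1 to 3 alone (adjusted p = 0.193).

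Divided by exon length, the levels of the genes could be set side by side as RPKM, which divides CPM by the length in kilobases, with the caution that annotated exons not used in colon lower the value. By their medians, Scd2, Hmgcs1 and Acly were the highest in both populations, at 255, 169 and 119 RPKM in tdTom+ cells and at 270, 86.9 and 77.1 RPKM in tdTom- cells. Insig1 came next in tdTom+ cells at 85.5 RPKM, while in tdTom- cells its 39.3 RPKM lay below Srebf2 at 57.9 RPKM and Stard4 at 40.4 RPKM. The lowest in tdTom+ cells were Acaca at 5.07 RPKM, Hsd17b7 at 5.7 RPKM and Fdps at 5.93 RPKM. In tdTom- cells the lowest were Fdps at 3.04 RPKM, Hsd17b7 at 5.07 RPKM and Lss at 5.31 RPKM. Reads of Fdps and Acaca may also have been lost to the overlapping or copied sequence described above, so their low ranks are uncertain. These medians are a description, and no test between genes was made.

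Most of the cholesterol enzymes were higher in the tdTom+ library within each mouse. Over the 17 mevalonate and sterol enzymes, the median log2 ratio of the tdTom+ to the tdTom- library of the same mouse ran from 0.44 in mouse 4 to 0.85 in mouse 2. In every mouse at least 14 of the 17 were higher in the tdTom+ library. Dhcr7 was lower in each of the 8 mice, Hsd17b7 was lower in mice 2 and 6, and Sc5d was lower in mouse 2. The 13 of these enzymes that were higher in the fit of all mice also passed in mice 1 to 3 alone and in mice 5 to 8 alone. Those mice were part of the fit that chose the 13, so this is not an independent check. These mouse numbers follow the series of animal numbers in the labels, which form 3 runs (mice 1 to 3, mouse 4, mice 5 to 8).

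**Figure D3:**
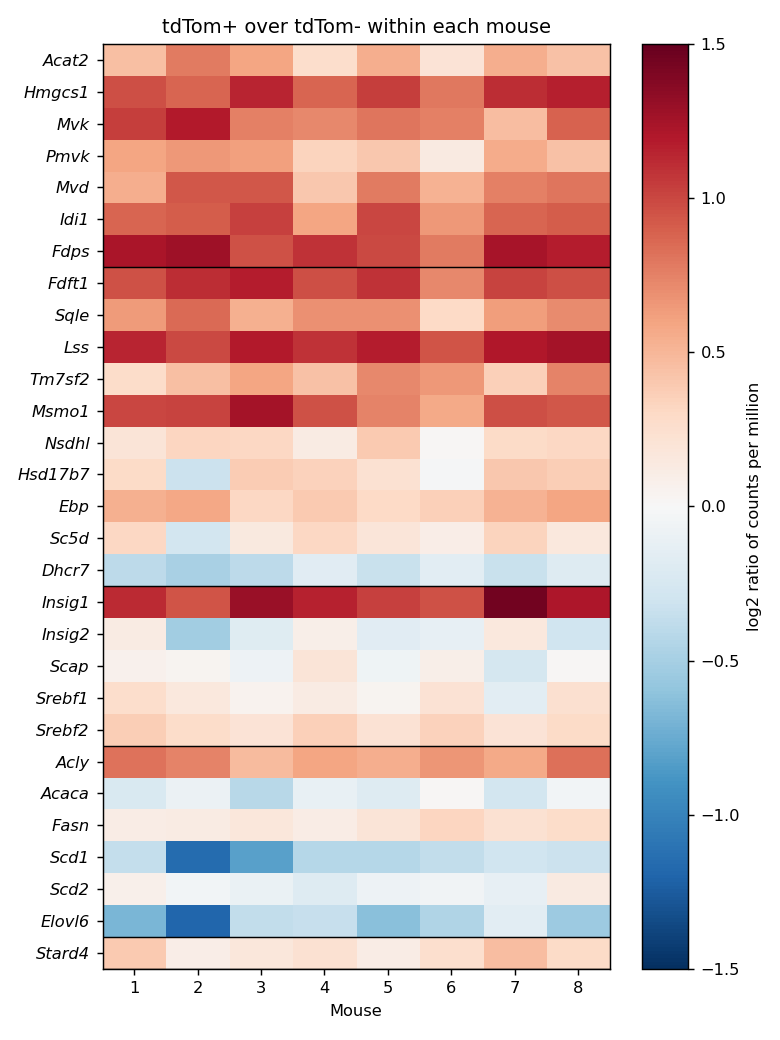
Log2 ratio of the tdTom+ to the tdTom- library of the same mouse for each of the 29 genes, red where the tdTom+ library was higher and blue where it was lower. Dhcr7, Scd1 and Elovl6 are blue in all 8 mice, with Elovl6 reaching -1.19, and Insig1 is red in all 8, between 0.95 and 1.45.

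The level of the cholesterol enzymes also varied between animals, and it did so in both populations. In mouse 1 the 17 enzymes had a median deviation of -0.36 on the log2 scale from the median of the tdTom+ libraries and of -0.41 from that of the tdTom- libraries. In mouse 2 the deviations were -0.24 and -0.34. The other 6 mice stayed between -0.09 and 0.15 in tdTom+ cells and between -0.08 and 0.05 in tdTom- cells. Mouse 1 had the lowest tdTom+ library for 9 of the 17 enzymes and the lowest tdTom- library for 10, and mouse 2 for 4 and 4. Across the 8 libraries of a population, which share these animals, the 136 pairs of the 17 enzymes had a median Pearson correlation of 0.60 in tdTom+ cells and 0.57 in tdTom- cells. Single pairs ran from -0.44 to 0.97 in tdTom+ cells and from -0.63 to 0.98 in tdTom- cells. For the 15 pairs of fatty acid enzymes the median was 0.80 in tdTom+ cells (0.29 to 0.93) and 0.32 in tdTom- cells (-0.70 to 0.90). Pairs of other genes were not examined. The part that animal, sort or library preparation had in these levels was not tested.

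**Figure D4:**
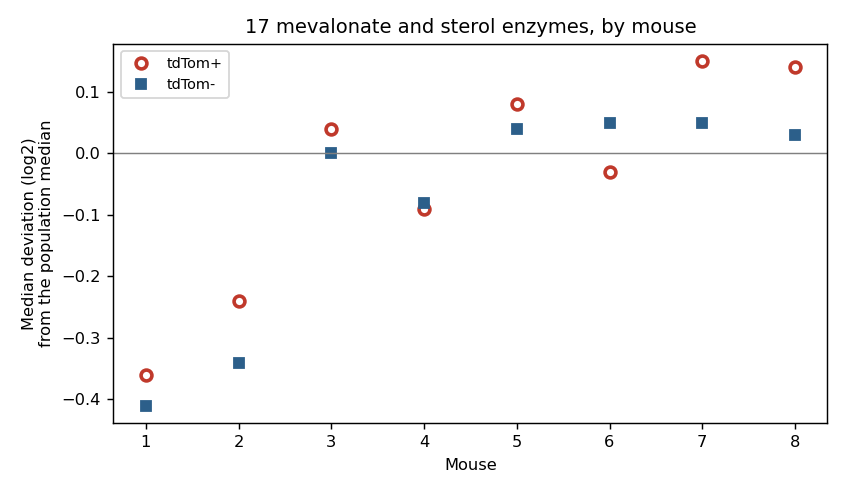
Median deviation (log2) of the 17 mevalonate and sterol enzymes in each mouse from the median of its population, for tdTom+ (open circles) and tdTom- (squares) libraries. Mice 1 and 2 lie lowest in both populations, at -0.36 and -0.24 in tdTom+ and -0.41 and -0.34 in tdTom- cells.

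The 2 populations differed widely in cell type markers, and all differences above move with that contrast. The summed level of 8 goblet cell genes was 51182 to 106942 CPM in tdTom+ libraries and 2263 to 8807 CPM in tdTom- libraries. The sum of 8 absorptive cell genes was 895 to 1650 CPM against 6304 to 12658 CPM, and that of 8 enteroendocrine genes was 283 to 760 CPM against 1324 to 3808 CPM. Enteroendocrine cells are themselves secretory, so a secretory type lay mainly on the tdTom- side. Tuft cell genes summed to 45.4 to 97.9 CPM against 80.5 to 137 CPM, proliferation genes to 633 to 973 CPM against 775 to 1350 CPM, and stem cell genes to 504 to 630 CPM against 417 to 643 CPM. Within these lists 8 of 8 goblet genes were higher in tdTom+ cells, and 7 of 8 absorptive, 7 of 8 enteroendocrine, 5 of 7 tuft, 5 of 9 proliferation and 4 of 6 stem cell genes were lower, with 1 stem cell gene higher. With the replicate block 8 of 8 absorptive, 6 of 7 tuft and 8 of 9 proliferation genes were lower and 2 of 6 stem cell genes were higher. Immune genes summed to 6.97 to 13.4 CPM against 11.4 to 36.5 CPM and stromal genes to 4.18 to 5.59 CPM against 6.16 to 8.31 CPM. Cd3e, Cd79a and Ccl5, and Col1a1, Col1a2, Col3a1, Pdgfra and Des, were under 1 CPM in every library. The part of cell type composition in the differences of the synthesis genes was not tested.

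The genes around the synthesis routes were read from 6 further lists of 99 genes, of which 93 were tested, 31 were higher in tdTom+ cells and 33 were lower, beside 25.5% in each direction over all genes tested. The counts per list that follow stand beside the same share and are descriptions of each list. Genes named in these lists beyond the largest and the smallest fold change of each were chosen after their values were seen. Of 9 further sterol enzymes and SREBP processing genes, 5 were higher and none was lower, with a median of 0.21. Cyp51, the lanosterol demethylase between Lss and Tm7sf2, had 195 to 283 CPM (median 252) in tdTom+ cells and 84.7 to 134 CPM (median 121) in tdTom- cells, with no overlap. Its log2 fold change was 1.07 (SE 0.10, adjusted p = 5.21e-09). Genes of the degradation of sterol-regulated proteins were higher as well, with log2 fold changes of 0.45 for Rnf139 and 0.36 for Ube2g2, and so was Mbtps1, the site-1 protease that cleaves SREBPs, at 0.21 (SE 0.06, adjusted p = 0.00386). Lbr, Fbxw7 and Mbtps2 did not pass.

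Among 14 genes that lead farnesyl diphosphate away from sterols, 6 were higher and 3 lower. Fntb, the beta subunit of protein farnesyltransferase, had 31.1 to 43.4 CPM (median 35.3) in tdTom+ cells and 20.5 to 26.3 CPM (median 22.3) in tdTom- cells, a log2 fold change of 0.65 (SE 0.07, adjusted p = 1.10e-07). Dhdds and Srd5a3, which make dolichol for protein glycosylation, were also higher, at 0.56 and 0.43. Nus1 at 0.11 (adjusted p = 0.243) and Dolk at 0.15 (adjusted p = 0.0384), also genes for dolichol, did not pass. Of the genes for ubiquinone, the electron carrier of mitochondria, the pair that makes its side chain was lower, and Coq2, which attaches that chain, was higher at 0.38 (SE 0.07, adjusted p = 6.86e-05). Pdss1 had 19.1 to 23.2 CPM (median 20.1) against 31.8 to 46.6 CPM (median 41.7) and fell by 1.00 on the log2 scale (SE 0.07, adjusted p = 2.31e-10), and Pdss2 had a log2 fold change of -0.88. The third gene that was lower was Dolpp1, another dolichol gene, at -0.35. In 4 of the 14 genes every tdTom+ library lay above every tdTom- library, and in 3 every tdTom+ library lay below. The shares of all genes tested were 15.2% above and 15.3% below. The other genes that passed, Pggt1b at 0.37 and Icmt at 0.27, each had 2 tdTom+ libraries within the tdTom- range.

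Of 21 genes of sterol sensing, transport and esterification, 19 were tested, 6 were higher and 8 lower. Soat1, which esterifies cholesterol for storage, had 130 to 168 CPM (median 145) in tdTom+ cells and 63.9 to 83.4 CPM (median 74.9) in tdTom- cells, a log2 fold change of 0.96 (SE 0.06, adjusted p = 1.84e-11). Soat2, its relative with the same activity, was lower and fell by 1.00 on the log2 scale (SE 0.19, adjusted p = 9.91e-05). Of the sterol carriers at membrane contacts, Stard3 at 0.89, Gramd1c at 0.81, Gramd1a at 0.60 and the oxysterol-binding protein gene Osbp at 0.41 were higher, and Gramd1b at -0.05 (adjusted p = 0.674) did not pass. Of the sterol exporters, Abcg5, Abcg8 and Abca1 were lower, and Abcg1 at 0.11 (adjusted p = 0.603) did not pass. Abcg5 had 1.75 to 4.39 CPM (median 2.99) against 12.4 to 28.5 CPM (median 20.6), a log2 fold change of -2.84 (SE 0.19, adjusted p = 3.51e-11), its partner Abcg8 was at -2.34, and Abca1 was at -0.98. Lipa, the lysosomal lipase that frees cholesterol from esters, was at -2.72, and Nr1h3, the sterol-sensing receptor LXR alpha, was at -1.17. Npc1l1, the sterol importer, and Ch25h were not tested because of low counts.

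Of 12 genes that supply acetyl-CoA, malonyl-CoA and NADPH, 11 were tested, 4 were higher and 6 lower. Mlycd, malonyl-CoA decarboxylase, had 40.8 to 51.9 CPM (median 42.9) in tdTom+ cells and 26.9 to 33.6 CPM (median 28.2) in tdTom- cells, a log2 fold change of 0.62 (SE 0.07, adjusted p = 7.92e-08). Slc25a1, the carrier that exports citrate for Acly, was higher at 0.42. Me1, which makes cytosolic NADPH, was the lowest by fold change, with 8.48 to 19.2 CPM (median 12) against 32.5 to 53.6 CPM (median 44.1), a log2 fold change of -1.81 (SE 0.15, adjusted p = 1.51e-09). The other NADPH sources Pgd and Idh1 were lower as well, at -0.58 and -0.37, and so were Acacb at -1.15 and Mlxipl at -0.85.

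Of 17 genes of elongation and desaturation, 14 were tested, 3 were higher and 4 lower. Hacd2, a dehydratase of the elongation cycle, had 38 to 58 CPM (median 44.3) against 26.9 to 36.5 CPM (median 28.9), a log2 fold change of 0.58 (SE 0.08, adjusted p = 3.05e-06), and the other 2 higher genes were Hacd4 at 0.45 and Hsd17b12 at 0.34. Fads1, the delta-5 desaturase of polyunsaturated fatty acids, had 18.6 to 40.3 CPM (median 31.3) against 29.6 to 68.4 CPM (median 53.4), a log2 fold change of -0.71 (SE 0.17, adjusted p = 9.62e-04). Hacd1 at -0.55, Elovl1 at -0.36 and Fads2 at -0.29 were the other 3 that were lower.

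All 26 genes of acyl-CoA, glycerolipid and phospholipid synthesis were tested, and 7 were higher and 12 lower. Pemt, which methylates phosphatidylethanolamine, had 8.16 to 11.1 CPM (median 8.95) in tdTom+ cells and 1.85 to 2.91 CPM (median 2.3) in tdTom- cells, a log2 fold change of 1.98 (SE 0.10, adjusted p = 1.11e-12). The acyl-CoA synthetases split, with Acsl1 at 1.68 and Acsl4 at 1.15 higher and Acsl3 at -0.62 lower. Mogat2 and Dgat2, which assemble triglycerides, had the 2 largest negative fold changes of the list. Mogat2 had 0.62 to 1.1 CPM (median 0.819) against 5.02 to 13.5 CPM (median 8.11), a log2 fold change of -3.23 (SE 0.22, adjusted p = 4.36e-11), and Dgat2 and its relative Dgat1 were at -2.22 and -0.91.

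**Figure D5:**
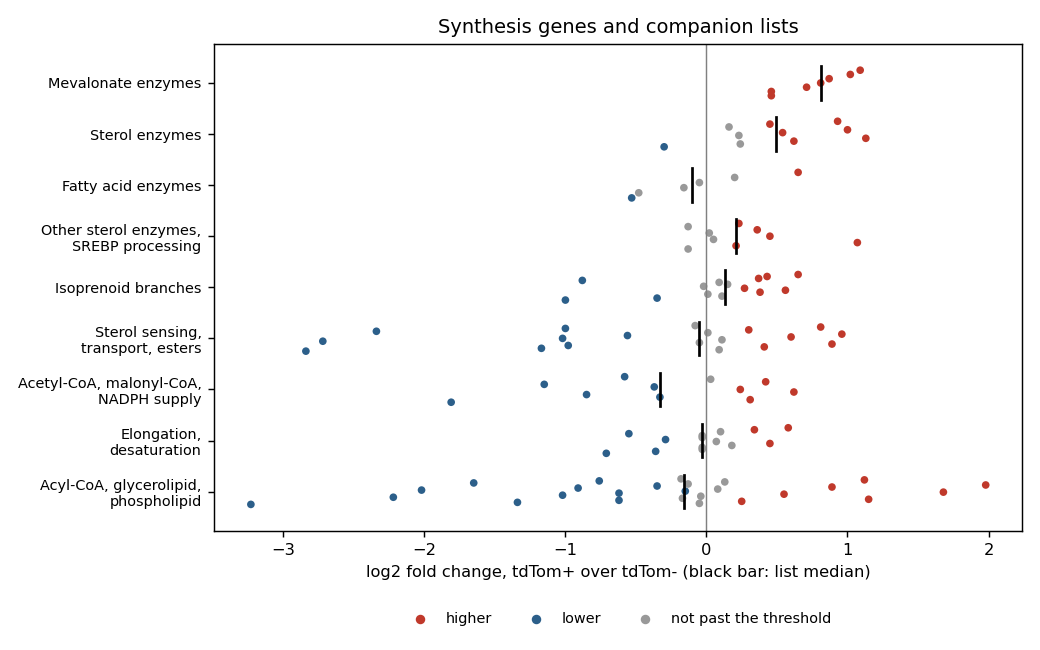
Log2 fold changes, tdTom+ over tdTom-, of the mevalonate, sterol and fatty acid enzymes and of the tested genes of the 6 further lists, 1 point per gene, coloured by direction and call, with a black bar at each list's median. The list medians run from 0.81 for the mevalonate enzymes and 0.49 for the sterol enzymes down to -0.33 for the genes of acetyl-CoA, malonyl-CoA and NADPH supply.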

How the data were processed

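RNA was sequenced from EpCAM+ tdTom+ and EpCAM+ tdTom- colon cells of 8 mice. The authors sequenced stranded mRNA libraries as 50-base single-end reads, aligned them with TopHat2 2.1.1 to GRCm38.p3 and deposited raw counts per gene, which featureCounts (1.5.0-p1 in the file headers, Subread 1.5.2 in the submitters' processing notes) gave on exons, reverse strand, primary alignments only. The notes also name DESeq2 1.14.1. A read with several equal matches was thus counted at its primary alignment. Total counts ran from 16482530 to 45791503, the largest being the tdTom- library of mouse 4 (all others at most 24218367). The floor of 3 counts is 0.0655 to 0.182 CPM and covers counting error only. Groups and pairing came from the labels, in which a shared animal number marks the tdTom+ and tdTom- libraries of a mouse. Their deviations from the group means correlated within each mouse (Pearson r 0.223 to 0.408, at most 0.168 between mice).

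The members and lists were chosen with earlier results of these data known. All 29 members are named, and of each further list the largest and smallest fold change past the threshold. Some genes of the further lists are counted but not reported here by name. Differences were tested on the counts in R 4.3.3 with edgeR 4.0.16 (filterByExpr, TMM, glmQLFit, glmQLFTest, all 16 libraries, no covariate, since none is stated for the study's comparison of these cells), and a gene passed when its p, adjusted after Benjamini and Hochberg, was under 0.01. Each standard error is the fold change divided by the square root of F. On simulated counts with 200 changed genes among 15725 tested, this fit recovered 195 with 2 false calls. Far more genes passed in the real libraries, and recovery of differences as small or as many as those reported here was not tested. Alternatives were the mouse as a replicate block, DESeq2 1.42.0, limma-voom (limma 3.58.1), RLE or upper-quartile factors, library totals only, the 25 most abundant genes left out, no filter, at least 10 counts in every library, an adjusted p under 0.05, each mouse left out, mice 1 to 3 or 5 to 8 only, and libraries thinned to the smallest. The tdTom- library of mouse 4 left out, and the block within mice 1 to 3 or 5 to 8, were added after seeing the data. Gene symbols came from GENCODE M21, promoters from RefSeq. Summaries used pandas 2.3.3, numpy 2.4.6 and scipy 1.17.1 in Python 3.11.15. The tamoxifen doses are those of the labels and of the study's methods on the treatment of animals, while its methods on RNA sequencing give another dose and time.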

Additional observations from a re-analysis of the deposited data

Results flagged for a closer look

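Of 82 groups of 8 libraries examined for a library far from the rest, 1 had such a library, against 4.1 that chance alone would give. Ebp in the tdTom+ library of mouse 5 was at 83.3 CPM, below the 93.9 to 102 CPM of the other 7 tdTom+ libraries, and its distance to the nearest of them was 0.61 of the whole range. It still lay above all 8 tdTom- libraries, the highest of which was at 81 CPM.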

How the results depend on the processing

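Of the 19 members called, 17 were called in the same direction under all 24 alternatives, and Srebf2 and Stard4 were the 2 that were not. The alternative of an adjusted p under 0.05 reads the main fit at a looser threshold, so no called member could lose its call there. Of 696 member values under the alternatives, 655 kept direction and call, 25 newly passed, 7 no longer passed, and 9, all of Scap, changed sign without a call in either fit. With mouse as a replicate block, and likewise at an adjusted p under 0.05, 4 members were lower in place of 2. Beyond the calls named in the report, the replicate block changed no other member's call. With mice 1 to 3 only, 2546 of all genes were higher, 2559 were lower and 17 further-list genes were higher, with fewer libraries in the fit. With mice 5 to 8 only the members' median was 0.37, and 0.38 with the replicate block. With each mouse left out in turn, 16 to 18 members were higher and 2 to 3 lower, and the median was 0.43 to 0.47. Without the tdTom- library of mouse 4, 17 members remained higher and 2 lower. Total counts and 8 mice limit small differences, so a gene that did not pass is not shown to be equal.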
